A study of Mus musculus with 6 samples.

Results

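The genes described here are the E2F transcription factors E2f1, E2f2, E2f3, E2f4, E2f6, E2f7 and E2f8 and the retinoblastoma family genes Rb1, Rbl1 and Rbl2. They were chosen by gene name, and all 10 were found among the 23282 genes counted in murine LSK cells and in bone marrow transformed by MLL-AF9. E2F factors bind the promoters of S phase genes, most of them together with a DP partner, and the pocket proteins Rb1, Rbl1 (p107) and Rbl2 (p130) hold them inactive until cyclin-dependent kinases phosphorylate the pocket proteins. E2f1, E2f2 and E2f3 are known as activators, E2f4 as the partner of Rbl1 and Rbl2 in resting cells, E2f6 as a repressor in a Polycomb-type complex that needs no pocket protein, and E2f7 and E2f8 as repressors that need no DP partner. Several of these genes are themselves E2F targets, and in blood-forming cells the network is known for coupling cell division to differentiation.

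The study deleted Mll4 (Kmt2d), a histone methyltransferase, on a 129/Sv x C57BL/6 background. In all, 4 groups of cells carrying MLL-AF9, a leukaemia fusion protein, were sequenced after 14 days of growth. MLL4-/- marrow received MLL-AF9-neo with FOXO3-IRES-GFP (2 libraries, the FOXO3 libraries) or with an empty vector (1 library, the Mll4-null empty-vector library). A separate transformation of Mll4f/f marrow received a Cre retrovirus (2 libraries, labelled Mll4 deleted) or an empty retrovirus (2 libraries, Mll4 intact), sorted 5 days after infection, so Cre goes with deletion. LSK cells, sorted as Lin-negative, Sca1-positive and c-Kit-positive cells, came from polyIC-treated littermates 2 months old, MLL4f/f MxCre+ (1 library, labelled Mll4 deleted) and WT MxCre+ (1 library). About 50 LSK cells were picked for each library, and their cDNA was amplified by PCR.

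Total counts ranged from 25895041 to 61950773 per library, and levels are given as CPM, counts scaled to a common library total. Counts over the whole Kmt2d gene do not check the deletion: Kmt2d had 95.6 and 73.7 CPM in the deleted MLL-AF9 libraries, against 79.5 and 61.7 CPM in the intact ones, and 13.9 CPM in the LSK library labelled deleted, against 1.88 CPM in the WT one. Foxo3 had 1292 and 1309 CPM in the FOXO3 libraries, against 27.3 CPM in the Mll4-null empty-vector library. Whether paired libraries stem from separate cultures is not stated in the labels, and the p-values therefore reflect only the spread between libraries, which may be technical. The FOXO3 pair differed by a chi-square of 1.99 per degree of freedom, whereas the deleted pair differed by 193 and the intact pair by 148, so each call below is also given with the FOXO3 pair summed into 1 library. By Xist, deleted library 1 and intact library 2 were female and the other MLL-AF9 libraries male. The deleted pair and the intact pair thus each joined cells of different sex, and both FOXO3 libraries were male. All 6 LSK markers reached 1 CPM in both LSK libraries. The MLL-AF9 target genes Hoxa9 and Meis1 summed to 238 and 234 CPM in the FOXO3 libraries, 162 CPM in the Mll4-null empty-vector library, 28.2 and 13.6 CPM in the deleted libraries and 11.6 and 9.11 CPM in the intact ones.

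Promoters of members are shown where they hold E2F-type letters, with E2f7 and E2f8, both called for Mll4 loss, first. RefSeq promoter windows of GRCm38.p6, 300 bases each, were at hand for 8 of the 10 members, 10 windows in all; the window of E2f1 lies at an internal start. The letters TTTGGCGC, TTTCGCGC, TTTCCCGC and TTTGCCGC were searched on both strands, as were the last 7 letters of each, which every match of the longer form also holds. The 8-letter form occurred in 4 of the 10 member windows (E2f2, E2f3, E2f7 and Rbl1) and in 2.26% of all 32851 windows, and the 7-letter form in 5 of the 10, E2f8 being added, and in 9.57% of all windows. The 250 bases before the start of E2f7, E2f8, Rbl1 and E2f3, and the site of E2f2, which lies after its start, are printed 5′ to 3′ on the gene's strand with the matches in capitals, at chr10:110745189-110745438 (+), chr7:48881597-48881846 (-), chr2:157204535-157204784 (-), chr13:29986064-29986313 (-) and chr4:136172303-136172320 (+).
E2f7: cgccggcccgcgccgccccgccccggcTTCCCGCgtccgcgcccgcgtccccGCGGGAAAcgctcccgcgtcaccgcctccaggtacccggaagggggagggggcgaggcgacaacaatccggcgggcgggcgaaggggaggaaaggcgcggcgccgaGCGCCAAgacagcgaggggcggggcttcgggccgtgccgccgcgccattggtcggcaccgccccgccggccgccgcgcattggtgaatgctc
E2f8: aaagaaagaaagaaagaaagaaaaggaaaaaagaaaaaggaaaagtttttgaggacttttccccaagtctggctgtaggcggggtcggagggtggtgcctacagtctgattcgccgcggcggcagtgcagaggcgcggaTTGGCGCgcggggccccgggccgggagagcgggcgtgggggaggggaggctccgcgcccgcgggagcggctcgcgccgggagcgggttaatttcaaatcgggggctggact
Rbl1: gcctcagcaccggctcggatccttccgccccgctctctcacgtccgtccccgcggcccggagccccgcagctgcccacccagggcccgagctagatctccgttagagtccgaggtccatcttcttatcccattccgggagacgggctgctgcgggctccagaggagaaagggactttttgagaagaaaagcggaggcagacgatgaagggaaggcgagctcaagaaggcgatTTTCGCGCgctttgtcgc
E2f3: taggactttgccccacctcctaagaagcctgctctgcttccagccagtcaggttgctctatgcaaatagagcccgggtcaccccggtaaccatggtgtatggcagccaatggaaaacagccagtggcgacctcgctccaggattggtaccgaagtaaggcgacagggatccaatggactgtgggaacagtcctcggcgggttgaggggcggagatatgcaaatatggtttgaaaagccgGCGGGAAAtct
E2f2: cggcatatagTTTGGCGC

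In E2f7, 3 matches of the 7-letter form begin at -223, -198 and -92 from the start, and the one at -198 extends to the 8-letter form on the opposite strand. The match of Rbl1 begins at -18 and that of E2f8 at -111. In E2f3 the printed match begins at -11, and a further match of the 7-letter form begins at +19, after the bases printed. The letters TTTGAA, known as a CHR element of late cell cycle genes, occurred in 4 of the 10 member windows (E2f2, E2f3, E2f8 and Rbl2) and in 17.9% of all windows; in E2f8 they begin at -20, on the opposite strand. Among 27 windows of S phase genes known as E2F targets, 11 held the 8-letter form and 19 the 7-letter form. A match is a description of the letters and not a measured binding site.

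Loss of Mll4 in MLL-AF9 cells went with higher E2f7, E2f8 and E2f4. These 3 of the 10 members passed the test as higher in the libraries labelled Mll4 deleted, none passed as lower. Of the 14997 genes tested, 7.97% were called higher and 6.94% lower. With the FOXO3 pair summed none of the 10 members passed, where 2.08% of all genes did, and none passed without either FOXO3 library or in a fit of the 4 deleted and intact libraries alone. The median log2 fold change of the 10 members was 0.39, beside -0.03 over all genes tested. In CPM, 8 of the 10 members had both deleted libraries above both intact ones, where 59% of all genes did not overlap in either direction. The number fell to 6 with CPM scaled by the TMM factors, since E2f2 and E2f3 then overlapped. The share of all genes was not computed on that scale or for the upward direction alone. Whether either count exceeds that of all genes is therefore not known. TMM scaling sets the fold changes 0.28 log2 units below the CPM ratios in this comparison.

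The atypical repressors moved most. E2f7 had 14.6 and 16.1 CPM in the deleted libraries, against 5.28 and 6.10 CPM in the intact ones. Its groups were well apart, and its log2 fold change was 1.14 ± 0.17 (SE, edgeR's quasi-likelihood test, Benjamini-Hochberg adjusted p = 0.0161), with an adjusted p of 0.0617 when the FOXO3 pair was summed. E2f8, which works beside E2f7, had 66.1 and 51.1 CPM in the deleted libraries, against 25.9 and 24.3 CPM in the intact ones. Both deleted libraries lay above the intact pair, which was tight, and the log2 fold change was 0.94 ± 0.14 (adjusted p = 0.0170 in edgeR's test, 0.0588 with the pair summed). Without intact library 1 the adjusted p of E2f8 was 0.0713, and without intact library 2 it was 0.0615. Exons of E2f8 overlap those of Gm2788 on the opposite strand, and whether the counting used strand is not given in the sources used here.

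E2f4, which with Rbl1 and Rbl2 keeps cell cycle genes silent in resting cells, had 103.4 and 103.1 CPM in the deleted libraries, against 61.2 and 55.0 CPM in the intact ones. The deleted libraries were nearly equal and clear of the intact pair. The log2 fold change was 0.55 ± 0.09 (adjusted p = 0.0186 in edgeR's test), with 0.0795 when the FOXO3 pair was summed and 0.0528 without intact library 1. E2f6 had 30.1 and 33.9 CPM in the deleted libraries, against 22.6 and 19.0 CPM in the intact ones. Its groups did not overlap, yet the log2 fold change of 0.35 ± 0.11 did not pass (adjusted p = 0.0882 in edgeR's test, 0.0336 without deleted library 1).

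None of the 3 activators passed. E2f1 had 52.6 and 59.7 CPM in the deleted libraries, against 31.6 and 37.6 CPM in the intact ones. The groups did not overlap, and the log2 fold change was 0.41 ± 0.16 (adjusted p = 0.142 in edgeR's test), with 0.22 without intact library 1 and 0.63 without intact library 2. E2f3 had 38.5 and 26.3 CPM in the deleted libraries, against 20.4 and 20.7 CPM in the intact ones, and deleted library 1 was the higher of a wide pair. E2f2 had 46.2 and 38.4 CPM in the deleted libraries, against 36.4 and 24.9 CPM in the intact ones, so that the lower deleted library lay just above the higher intact one. The log2 fold changes of E2f3 and E2f2 were 0.37 ± 0.19 and 0.20 ± 0.17, with adjusted p of 0.238 and 0.456 in edgeR's test. That of E2f3 was 0.14 without deleted library 1 (adjusted p = 0.377) and 0.62 without deleted library 2 (adjusted p = 0.0298). That of E2f2 was 0.02 without intact library 2 and 0.41 without intact library 1.

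None of the 3 pocket protein genes passed. Rbl1, the pocket protein known as an E2F target, had 52.6 and 55.7 CPM in the deleted libraries, against 27.4 and 31.8 CPM in the intact ones. The pairs were well separated, and the log2 fold change of 0.59 ± 0.15 lay just outside the threshold (adjusted p = 0.0511 in edgeR's test), and it passed without deleted library 1 (0.0493), without intact library 2 (0.0365) and without the Mll4-null empty-vector library (0.0332). Rb1 had 116 and 73.0 CPM in the deleted libraries, against 95.2 and 88.8 CPM in the intact ones. Its deleted libraries lay on either side of the intact pair, and its log2 fold change was -0.24 ± 0.22 (adjusted p = 0.478 in edgeR's test). Without deleted library 1 it was -0.54, with an adjusted p of 0.0253. Rbl2, the pocket protein of resting cells, had 83.0 and 73.1 CPM in the deleted libraries, against 73.8 and 58.4 CPM in the intact ones. These groups overlapped, with a log2 fold change of -0.03 ± 0.12 (adjusted p = 0.866 in edgeR's test), and the sign of the change turned under several settings. Exons of Rb1 overlap those of Rcbtb2, and exons of Rbl2 those of Aktip and Gm45464, all on the opposite strand.

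**Figure D1:**
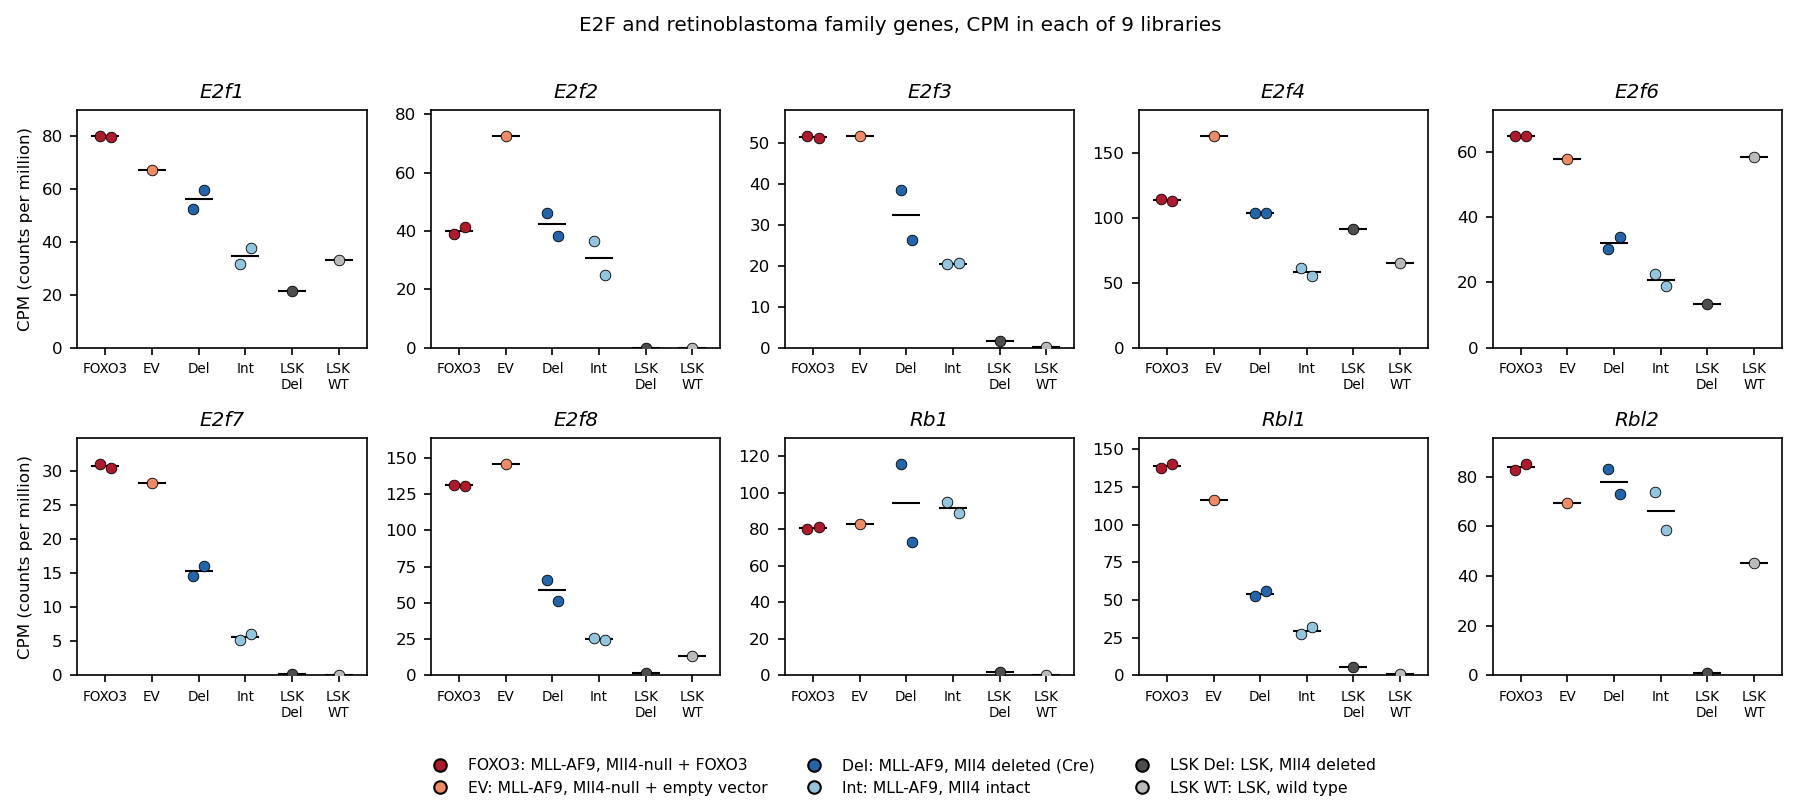
Level of each member in CPM (vertical axis, from 0) in the 9 libraries, with a bar at the group mean and 1 point per library. E2f7 in the FOXO3 and Mll4-null empty-vector libraries lies between 28.3 and 31.1 CPM, above the deleted pair, which lies above the intact pair, while Rb1 shows no such order.

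The summed level of macrophage markers was lower in the deleted libraries. The 6 macrophage markers, all detected in every MLL-AF9 library, summed to 4875 and 10731 CPM in the deleted libraries, against 22785 and 32922 CPM in the intact ones. Lyz2 held most of each sum, at 3416 and 8534 CPM in the deleted libraries, against 19157 and 28578 CPM in the intact ones. Adgre1 alone of the 6 overlapped, at 418 and 316 CPM, against 395 and 467 CPM, and did not pass (adjusted p = 0.128 in edgeR's test). The 4 primary granule genes of immature myeloid cells summed to 9470 and 12724 CPM in the deleted libraries, against 1603 and 2348 CPM in the intact ones. The 3 mast cell and basophil markers summed to 9976 and 585 CPM in the deleted libraries, against 4529 and 1835 CPM in the intact ones. The part of these markers in the member levels was not tested, and in bulk RNA fewer cells of a type and less RNA per cell cannot be told apart.

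Both DP partners and most of the S phase E2F target genes were called higher in the deleted libraries, while other lists of the network, given below, split. Tfdp1 and Tfdp2, the DP subunits, both rose, with log2 fold changes of 0.77 ± 0.13 and 0.95 ± 0.16 (adjusted p = 0.0219 and 0.0209 in edgeR's test, 0.0805 and 0.0715 with the FOXO3 pair summed). Tfdp1 had 232 and 227 CPM in the deleted libraries, against 129.8 and 94.3 CPM in the intact ones, groups that lay far apart. Of 27 S phase E2F target genes, 24 rose and none fell, with a median log2 fold change of 1.27, and 12 of them passed with the pair summed. Uhrf1, which keeps DNA methylation through replication, rose by 1.74 ± 0.11, Tk1, thymidine kinase, by 1.89 ± 0.15, Mcm3, a subunit of the replicative helicase, by 1.57 ± 0.14, and Rrm2, a ribonucleotide reductase subunit, by 1.66 ± 0.15 on the log2 scale. All 27 estimates were positive, and the summed level of the list was 2954 and 3400 CPM in the deleted libraries, against 1062 and 1183 CPM in the intact ones.

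Of 12 G2/M genes, 11 rose and none fell, with a median log2 fold change of 1.32, and 6 passed with the pair summed. Among them were Top2a, the topoisomerase of chromosome condensation, at 1.39 ± 0.11, the spindle checkpoint kinase Bub1 at 1.36 ± 0.16, Cdc20, which activates the anaphase-promoting complex, at 1.35 ± 0.16, and the mitotic kinase Plk1 at 1.40 ± 0.17. Of 7 subunits and partners of MuvB, the core that Rbl1 and Rbl2 share with B-MYB, 3 rose, and 1 of the 3 passed with the pair summed, Mybl2. Mybl2 (B-MYB) had 80.5 and 91.8 CPM in the deleted libraries, against 29.4 and 25.5 CPM in the intact ones, and its groups were clearly apart. Its log2 fold change was 1.37 ± 0.11 (adjusted p = 0.00730 in edgeR's test, 0.0484 with the pair summed). Foxm1 (0.95 ± 0.18) and Rbbp4 (0.71 ± 0.10) also rose, while Lin9, at 0.73 ± 0.23, did not pass.

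The upstream kinases and inhibitors split. Of 7 G1 cyclins and kinases, 3 rose and 1 fell. Ccnd1 (cyclin D1) had 47.6 and 56.9 CPM in the deleted libraries, against 132.6 and 163.7 CPM in the intact ones, so that every deleted library lay below both intact ones. Its log2 fold change was -1.79 ± 0.19 (adjusted p = 0.00974 in edgeR's test, 0.0484 with the pair summed). Ccne1 (cyclin E1), the cyclin that follows D cyclins and is known as an E2F target, rose by 1.08 ± 0.18, Cdk2, its kinase, by 0.52 ± 0.10, and Cdk4 by 0.53 ± 0.13 on the log2 scale, and none of these 3 passed with the pair summed. Of 7 CDK inhibitors, 2 fell and none rose: Cdkn1c (p57) by 3.65 ± 0.50 and Cdkn1a (p21) by 0.62 ± 0.11 on the log2 scale, neither passing with the pair summed. Cdkn1b had a log2 fold change of -0.42 ± 0.15 and Cdkn2c one of 0.77 ± 0.41, and neither passed.

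Genes tied to single members were read against the 14.9% of all genes that were called for Mll4 loss. Of 7 partners of the E2f6 complex, 1 rose, L3mbtl2 (0.66 ± 0.15), and the median log2 fold change of -0.03 equalled that of all genes; Ring1, Rybp and Pcgf6 had -0.40 ± 0.14, -0.27 ± 0.17 and 0.30 ± 0.21 and did not pass. Of 3 germline genes known as E2f6 targets, Stag3 alone passed the filter on low counts, with a log2 fold change of -0.77 ± 0.39 that did not pass the test, and Smc1b and Slc25a31 were not tested. Of 5 tested apoptosis genes described as E2f1 targets, 1 fell, Bbc3 (PUMA, -0.78 ± 0.17). With the pair summed neither L3mbtl2 nor Bbc3 passed (adjusted p = 0.103 and 0.147 in edgeR's test). Bcl2l11 and Apaf1 had log2 fold changes of -0.57 ± 0.14 and 0.29 ± 0.10 and did not pass.

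The Mll4-null cells of the separate transformation with the empty vector were compared with the Cre-deleted cells. Of the 10 members 5 passed as higher in the Mll4-null cells (E2f4, E2f6, E2f7, E2f8 and Rbl1) and none as lower, where 21.7% of all genes were called, 9.54% higher and 12.2% lower. With the FOXO3 pair summed only E2f8 passed among the members, where 6.97% of all genes did, and without either FOXO3 library 1 member passed as well. The median log2 fold change of the members was 0.65, beside -0.00 over all genes. This comparison rests on 1 empty-vector library and shares the deleted libraries with the comparison above, and the transformation, the vectors and the route of Mll4 loss cannot be told apart. The empty-vector library lay above both deleted libraries in 8 members and below both in 1, where 81.9% of all genes did not overlap in either direction.

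E2f8 stood furthest apart, at 146 CPM in the Mll4-null empty-vector library, against 66.1 and 51.1 CPM in the deleted libraries. Its log2 fold change was 1.24 ± 0.17 (adjusted p = 0.0103 in edgeR's test, 0.0393 with the pair summed). Rbl1 had 116 CPM in the empty-vector library, against 52.6 and 55.7 CPM in the deleted ones, a clear gap with a log2 fold change of 1.02 ± 0.17 (adjusted p = 0.0163, and 0.0593 with the pair summed). E2f6 followed at 57.7 CPM, against 30.1 and 33.9 CPM, with 0.77 ± 0.13 (adjusted p = 0.0170, and 0.0887 with the pair summed). E2f7 and E2f4 had log2 fold changes of 0.80 ± 0.20 and 0.58 ± 0.10, with adjusted p of 0.0394 and 0.0191 in edgeR's test and of 0.142 and 0.116 with the pair summed. The adjusted p of E2f7 was 0.0603 without deleted library 1 and 0.0668 with library sex as a block.

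The activators and the remaining pocket proteins did not pass here. E2f2 had 72.6 CPM in the empty-vector library, against 46.2 and 38.4 CPM in the deleted ones, with a log2 fold change of 0.70 ± 0.20 (adjusted p = 0.0592 in edgeR's test, 0.0450 and 0.0452 without intact library 1 or 2). E2f3 and E2f1 had log2 fold changes of 0.60 ± 0.23 and 0.18 ± 0.20, and neither passed. That of E2f3 was 0.85 without deleted library 1 (adjusted p = 0.0127), 0.35 without deleted library 2 (adjusted p = 0.121) and 0.80 with library sex as a block (adjusted p = 0.0475). That of E2f1 was 0.04 without deleted library 1 and 0.28 without deleted library 2. Rb1 had 83.1 CPM in the empty-vector library, between the deleted libraries, with -0.27 ± 0.27, and -0.56 (adjusted p = 0.0260) without deleted library 2. Rbl2, at 69.5 CPM, lay below both deleted libraries, with -0.25 ± 0.14 (adjusted p = 0.263 in edgeR's test).

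The network followed in part. Of the 27 S phase genes 15 were higher and none lower in the empty-vector library, with a median of 0.78, and 2 passed with the FOXO3 pair summed, Dut (0.96 ± 0.12) and Slbp (1.02 ± 0.14). Of the 12 G2/M genes 4 were higher and none lower, with a median of 0.68, and none passed with the pair summed; Kif11, a mitotic kinesin, had 0.86 ± 0.12 and Top2a 0.72 ± 0.13. Of the 7 MuvB genes and partners 3 were higher, led by Mybl2 at 1.09 ± 0.13, which also passed with the pair summed, and with Rbbp4 at 0.68 ± 0.12. Of the 2 DP partners neither passed, Tfdp1 having 0.59 ± 0.16 and Tfdp2 -0.14 ± 0.19. Ccnd1 had 3.08 CPM in the empty-vector library, against 47.6 and 56.9 CPM in the deleted ones, a log2 fold change of -4.16 ± 0.29 that also passed with the pair summed. Of the other G1 genes 3 were higher, Cdk6 among them at 0.85 ± 0.13, and none of the 3 passed with the pair summed.

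Among the 7 CDK inhibitors Cdkn1a fell by 2.70 ± 0.15 and also passed with the pair summed, while Cdkn1b (p27) rose by 0.85 ± 0.18, a call lost with the pair summed. None of the 7 partners of E2f6 passed, Mga having 0.50 ± 0.16 and Pcgf6 0.74 ± 0.25, nor did Stag3 (-1.53 ± 0.51). Of the apoptosis genes Bcl2l11 (BIM) fell by 1.37 ± 0.19, also with the pair summed, and Bbc3, at -0.66 ± 0.22, did not pass. The macrophage markers summed to 859 CPM in the empty-vector library, against 4875 and 10731 CPM in the deleted ones, and their part in these values was not tested.

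**Figure D2:**
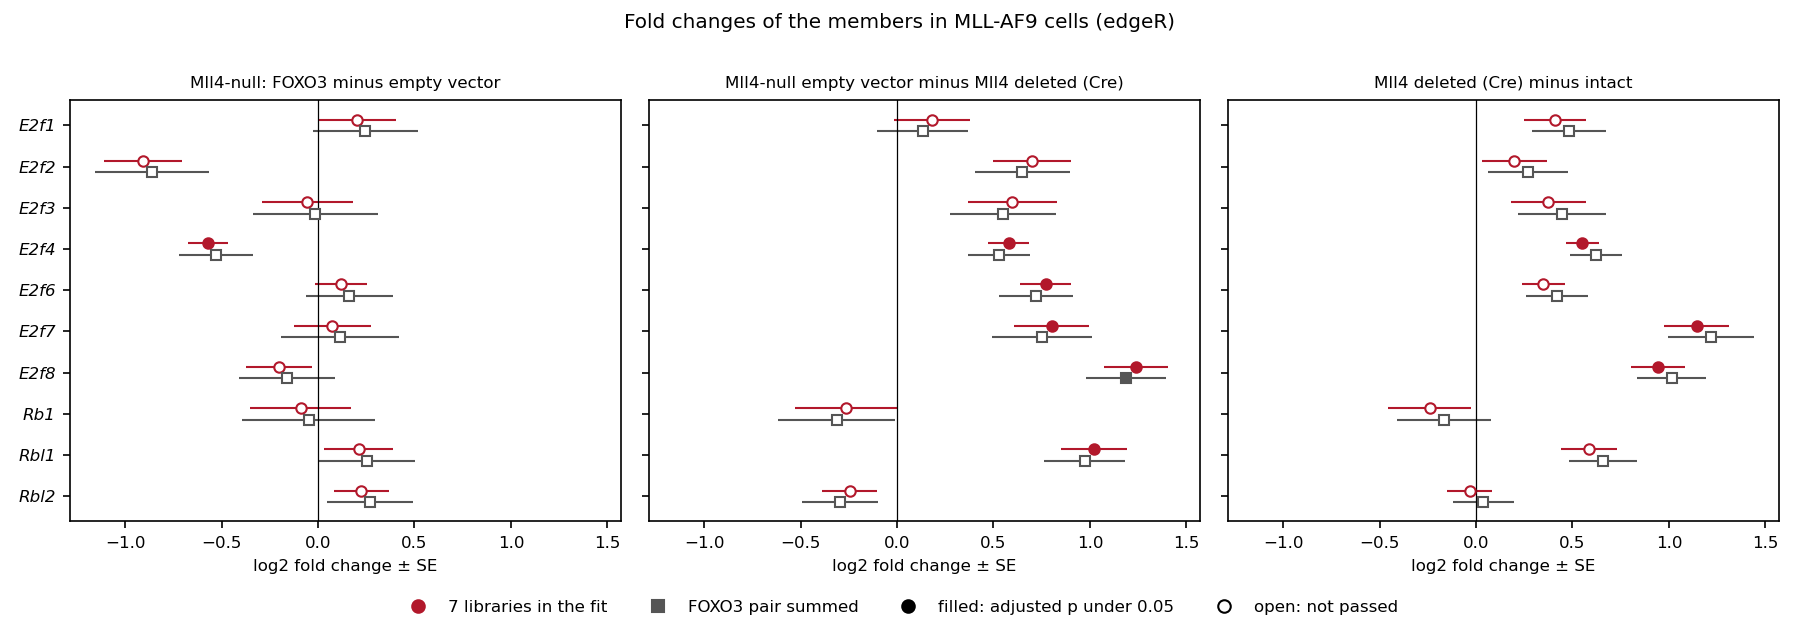
Log2 fold change ± SE of each member (horizontal axis) in the 3 comparisons of MLL-AF9 cells, from edgeR; circles are the fit of 7 libraries, squares the fit with the FOXO3 pair summed, and filled symbols have an adjusted p under 0.05. E2f4, E2f7 and E2f8 are filled circles in the right panel at 0.55, 1.14 and 0.94, and the square of E2f8 in the middle panel is the filled square.

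Expression of FOXO3, a forkhead factor known to induce cell cycle inhibitors, in Mll4-null cells went with lower E2f4. E2f4 had 114 and 112 CPM in the FOXO3 libraries, against 163 CPM in the Mll4-null empty-vector library. Both FOXO3 libraries lay below the single empty-vector one, and the log2 fold change was -0.57 ± 0.10 (adjusted p = 0.0340 in edgeR's test). The call was lost with the pair summed (adjusted p = 0.324), without either FOXO3 library (0.312 and 0.336), with library totals alone (0.0670), with the library sex as a block (0.0546) and without intact library 2 (0.0501). It was the 1 member called of 10, where 7.13% of all genes were called, 4.93% lower and 2.2% higher, and with the pair summed none of the members passed, where 1.19% of all genes did. The empty-vector library shares its values with the comparison of transformations above, and with 1 such library every member lay outside it, 5 above and 5 below, where 90.6% of all genes did not overlap.

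E2f2 had 38.8 and 41.3 CPM in the FOXO3 libraries, against 72.6 CPM in the empty-vector library. The gap was wider than that of E2f4, but its log2 fold change of -0.91 ± 0.20 did not pass (adjusted p = 0.0582 in edgeR's test, 0.300 with the pair summed, 0.0447 and 0.0411 without deleted library 1 or 2). E2f1 had 80.2 and 79.9 CPM in the FOXO3 libraries, against 67.3 CPM in the empty-vector library, and E2f3 had 51.8 and 51.4 CPM, against 51.9 CPM. The log2 fold changes were 0.20 ± 0.20 for E2f1 and -0.06 ± 0.24 for E2f3. Thus the 3 activators had estimates of different sign, and none passed.

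The repressors stayed near the empty-vector level. E2f7 had 31.1 and 30.4 CPM in the FOXO3 libraries, against 28.3 CPM in the empty-vector library, and E2f8 had 131.2 and 130.9 CPM, against 146 CPM. Their log2 fold changes were 0.07 ± 0.20 and -0.20 ± 0.17. E2f6 had 64.7 and 64.9 CPM with FOXO3, against 57.7 CPM with the empty vector, a log2 fold change of 0.12 ± 0.14. Among the pocket proteins Rbl1 had 138 and 141 CPM with FOXO3, against 116 CPM with the empty vector, Rbl2 had 82.7 and 85.2 CPM, against 69.5 CPM, and Rb1 had 80.2 and 81.2 CPM, against 83.1 CPM. Their log2 fold changes were 0.21 ± 0.18, 0.22 ± 0.15 and -0.09 ± 0.27, and the adjusted p of the 8 members other than E2f4 and E2f2 lay between 0.428 and 0.929 in edgeR's test.

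Downstream, none of the 27 S phase genes and none of the 12 G2/M genes passed with FOXO3, with medians of -0.06 and -0.01 beside -0.04 over all genes. Mcm6 and Dut had the smallest p among the S phase genes, with 0.66 ± 0.18 and -0.30 ± 0.12. Among the G2/M genes Cdc20 had -0.24 ± 0.19 and Nusap1 0.20 ± 0.16. The S phase list summed to 5812 and 5803 CPM in the FOXO3 libraries, against 5631 CPM in the empty-vector library. The MuvB genes and the DP partners had no member that passed; Tfdp2, Lin9 and Rbbp4 had 0.57 ± 0.20, 0.59 ± 0.28 and -0.26 ± 0.12.

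Upstream, 3 genes of the network passed with FOXO3 and none did with the pair summed. Cdkn2c (p18), an inhibitor of Cdk4 and Cdk6, had 122 and 124 CPM in the FOXO3 libraries, against 6.00 CPM in the empty-vector library. Its log2 fold change was 4.31 ± 0.57 (adjusted p = 0.0143 in edgeR's test, 0.0657 with the pair summed). The related inhibitor genes Cdkn2a and Cdkn2b were named after their values were seen. Their log2 fold changes were -4.11 ± 0.86 and -4.25 ± 0.99, and neither passed (adjusted p = 0.0502 and 0.0663 in edgeR's test). Cdkn2a had 2.64 and 2.67 CPM with FOXO3, against 44.3 CPM with the empty vector. Cdk6, a kinase that phosphorylates pocket proteins, had 80.3 and 83.8 CPM with FOXO3, against 47.1 CPM with the empty vector, and rose by 0.75 ± 0.14. Cdkn1a had 51.5 and 49.9 CPM with FOXO3, against 85.3 CPM with the empty vector, and fell by 0.80 ± 0.13. Cdk4 (-0.50 ± 0.15), Mga (0.53 ± 0.17), Pcgf6 (-0.41 ± 0.25), Stag3 (0.46 ± 0.49), Apaf1 (0.46 ± 0.12) and Bbc3 (-0.63 ± 0.21) did not pass. The mast cell and basophil markers summed to 222 and 226 CPM with FOXO3, against 2180 CPM with the empty vector. The macrophage markers summed to 462 and 465 CPM with FOXO3, against 859 CPM. Lyz2 had 147 and 146 CPM with FOXO3, against 530 CPM. Itgam, which held most of the FOXO3 sums, went the other way, at 291 and 294 CPM, against 257 CPM. The part of these markers in the values above was not tested.

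**Figure D3:**
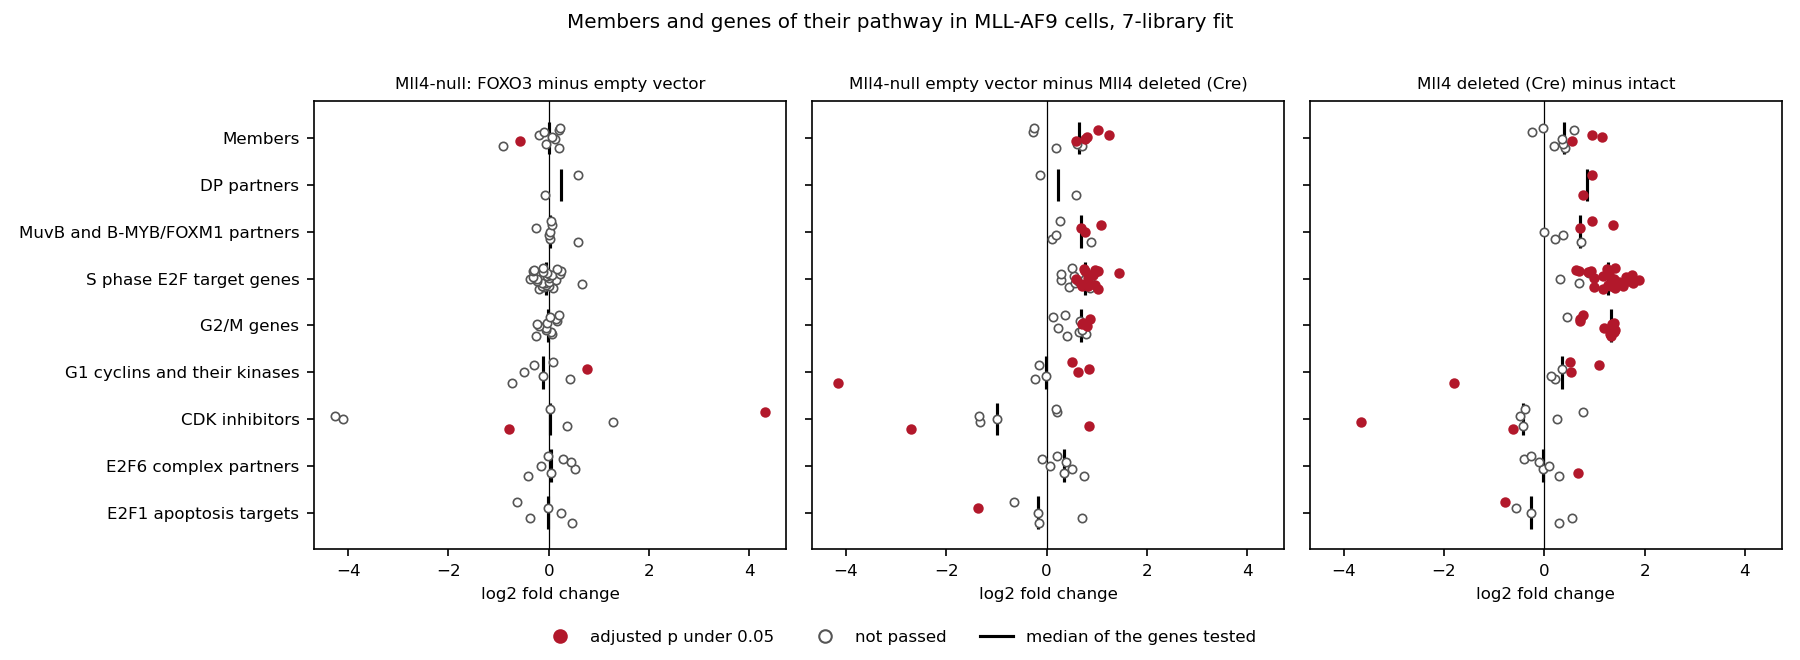
Log2 fold change (horizontal axis) of each tested gene of the member set and of 8 lists of their pathway in the 3 comparisons of MLL-AF9 cells; each point is 1 gene, filled where the adjusted p was under 0.05, and the bar is the median. In the right panel the S phase and G2/M genes have medians of 1.27 and 1.32, and in the left panel none of these genes is filled.

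The balance of members within a library does not depend on the scaling of libraries. The log2 ratio of Rbl1 to Rbl2 counts was 0.73 and 0.72 in the FOXO3 libraries and 0.74 in the Mll4-null empty-vector library. It was -0.66 and -0.39 in the deleted libraries, against -1.43 and -0.88 in the intact ones, so that both deleted libraries lay above both intact ones. The 3 Mll4-null libraries had more Rbl1 than Rbl2 counts, and the other 4 MLL-AF9 libraries had fewer. With 2 libraries against 2 an exact two-sided permutation test cannot go below 0.333, so no test was made.

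The ratio of E2f8 to E2f4, an atypical repressor over the quiescence partner, was 0.20 and 0.22 on the log2 scale in the FOXO3 libraries, against -0.16 in the empty-vector library. It was -0.64 and -1.01 in the deleted libraries, against -1.24 and -1.18 in the intact ones, again without overlap. The ratio of E2f1 to E2f4 was -0.51 and -0.49 in the FOXO3 libraries, against -1.28 in the empty-vector library, the lowest of the 7. It was -0.98 and -0.79 in the deleted libraries, against -0.95 and -0.55 in the intact ones, and these groups overlapped.

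**Figure D4:**
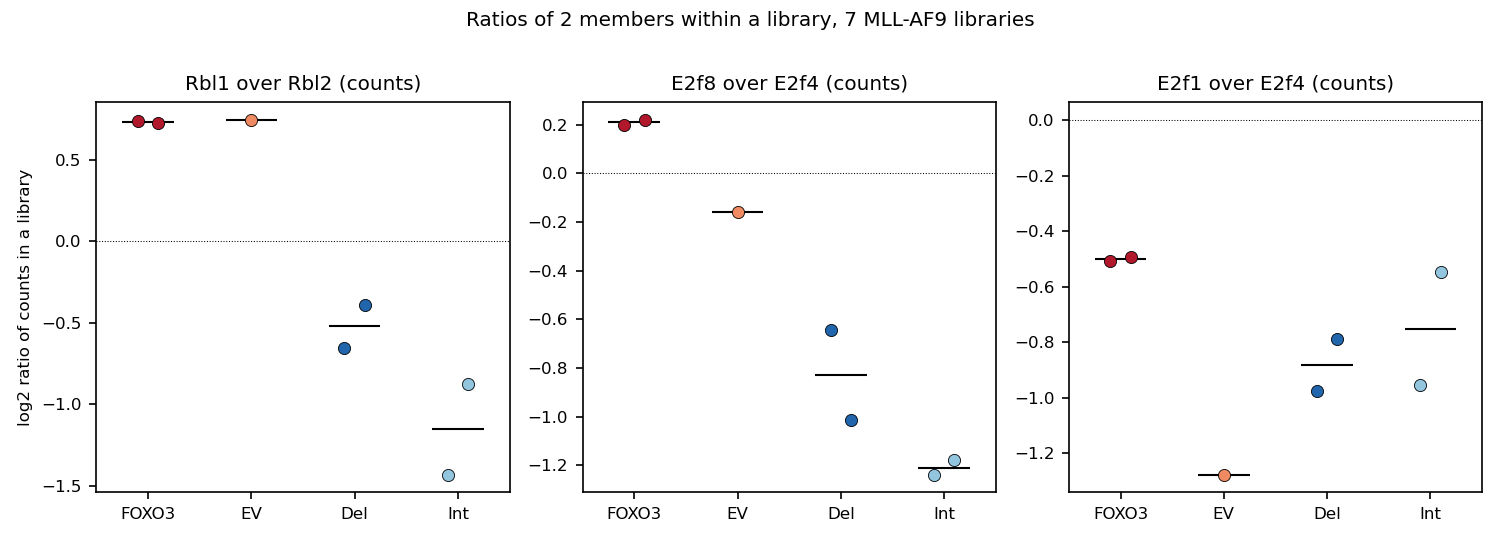
Log2 ratio of the counts of 2 members within each library (vertical axis) in the 7 MLL-AF9 libraries, 1 point per library with a bar at the group mean; the dotted line marks equal counts. Rbl1 over Rbl2 lies above the line in the 3 Mll4-null libraries, between 0.72 and 0.74, and below it in the deleted and intact ones.

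Levels of the members were set side by side as CPM per kilobase of exon, with exon lengths from GENCODE M21, which may differ from the annotation used for counting. E2f4 was the highest member per kilobase in all 6 groups, with 56.8 in the FOXO3 libraries, 81.8 in the Mll4-null empty-vector library, 51.8 in the deleted libraries and 29.2 in the intact ones. E2f7 was the lowest in the MLL-AF9 groups, with 3.90, 3.58, 1.95 and 0.721 CPM per kilobase in the same order. In the FOXO3 libraries E2f8 (33.8), Rbl1 (28.6), E2f6 (26.8), E2f1 (25.4), Rb1 (17.3), Rbl2 (17.0), E2f3 (9.63) and E2f2 (8.44) lay between them, and only Rb1 and Rbl2 overlapped between neighbours. The empty-vector library had the same first 6 places, with E2f8 at 37.6, Rbl1 and E2f6 at 23.9 each, E2f1 at 21.3 and Rb1 at 17.9 CPM per kilobase.

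In the deleted libraries Rb1 (20.3) came second per kilobase, followed by E2f1 (17.8), Rbl2 (15.8), E2f8 (15.1), E2f6 (13.2), Rbl1 (11.1), E2f2 (8.93) and E2f3 (6.04). From Rb1 to E2f6 each neighbour overlapped the next. In the intact libraries Rb1 (19.8) was again second, before Rbl2 (13.4), E2f1 (10.97), E2f6 (8.59), E2f8 (6.47), E2f2 (6.47), Rbl1 (6.09) and E2f3 (3.84). There Rbl2 overlapped E2f1, and E2f8, E2f2 and Rbl1 overlapped each other. Rbl1 held rank 3 per kilobase in both Mll4-null groups, rank 7 in the deleted libraries and rank 8 in the intact ones.

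In LSK cells, blood stem and progenitor cells, there was 1 library for each genotype and so no test. The S phase list summed to 3885 CPM in the LSK library labelled deleted, against 2719 CPM in the WT library, but its genes differed in direction. Pcna had 1118 CPM in the deleted library, against 304 CPM in the WT one, and Cdt1 441 CPM, against 95.9 CPM. Mcm3 went the other way, with 142 CPM in the deleted library, against 505 CPM in the WT one, as did Dut (72.7 CPM, against 229 CPM). The intervals below are exact 95% intervals on the ratio of counts, cover counting error only, and do not cover the picking of cells or PCR. Between these libraries single genes often differed: of 9033 genes with at least 100 counts in either, 7.69% had no count in the other, and 42.3% differed at least 4-fold. The Kmt2d count went against the label, as given above. The 6 macrophage markers summed to 44.3 CPM in the deleted library and 14.4 CPM in the WT library. Lyz2 held most of this, at 41.8 and 13.7 CPM, and Adgre1 and Itgax were at 0 in both. Klf1, an erythroid factor, had 0 CPM in the deleted library, against 92.8 CPM in the WT library.

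E2f4 was the highest member, with 91.3 CPM in the LSK library labelled deleted, against 65.2 CPM in the WT library, a log2 ratio of 0.49 (0.40 to 0.58). E2f1 had 21.5 CPM in the deleted library, against 33.1 CPM in the WT library (log2 ratio -0.62, -0.78 to -0.47). E2f6 had 13.3 CPM, against 58.4 CPM (log2 ratio -2.13, -2.31 to -1.96). These 3 were the E2F genes above 10 CPM in both LSK libraries. E2f8 had 1.54 CPM in the deleted library, against 13.3 CPM in the WT library (log2 ratio -3.10, -3.61 to -2.63). E2f3 had 42 counts in the deleted library, against 3 in the WT library (log2 ratio 3.85, 2.20 to 6.18). E2f7 had 6 counts, against 0, with a lower limit of 0.27 on the log2 ratio. E2f2 had none in either library. A floor of 3 counts would be 0.116 CPM in the deleted library and 0.113 CPM in the WT library. The exact upper limits for E2f2 were 0.142 and 0.139 CPM.

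The pocket protein genes were far apart in the LSK libraries. Rbl2, the pocket protein of resting cells, had 23 counts (0.888 CPM) in the library labelled deleted, against 1203 counts (45.2 CPM) in the WT library, a log2 ratio of -5.67 (-6.33 to -5.08). Rbl1 had 144 counts in the deleted library, against 25 in the WT library (log2 ratio 2.56, 1.95 to 3.24). Rb1 had 55 counts in the deleted library, against 0 in the WT library, with a lower limit of 3.89 on the log2 ratio. The log2 ratio of Rbl1 to Rbl2 was 2.65 in the deleted library, against -5.59 in the WT library. These values describe a pair of libraries of about 50 cells each, and a difference between genotypes was not tested.

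The genes nearest to a member over the 7 MLL-AF9 libraries were sought among the 14997 genes tested, by the root mean square difference of centred log2(CPM + 0.5). Nearest to E2f8 were Dkc1 (0.0432), Cstf2 (0.0773) and Ppat (0.0820), among the nearest to E2f1 were Fbxo45 (0.0521) and Cln6 (0.0560), and nearest to Rbl1 were Atad2 (0.0611), Mapre2 (0.0801) and Kif18a (0.0813). Nearest to Rb1 were Spink4 (0.0523), Myt1l (0.0594) and Mrgprx1 (0.0605), genes at 0.226 CPM or less in every one of these libraries, so that the likeness to Rb1 is one of near-constant values. The 7 libraries share only 4 samples, and these distances are descriptions with no test.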

How the data were processed

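RNA-seq counts of 9 libraries from 6 samples were used. The deposited files hold whole-number read counts per NCBI gene number, with a file for each library. Bowtie 0.12.8, TopHat2 2.0.11 and the build mm9 are named in the submitters' processing notes. How reads were counted, on which annotation and whether by strand is not given in the sources used here. RefSeq (GRCm38.p6) gave the gene names and matched 23185 of 23282 gene numbers; the 97 others took 0.0373% to 1.01% of a library's counts and stayed in totals and tests. Promoter windows come from RefSeq on GRCm38.p6, a build other than that of the counts.

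The 7 MLL-AF9 libraries entered 1 fit in edgeR 4.0.16 (R 4.3.3) with 4 group coefficients, TMM scaling, the default filter on low counts (14997 genes kept, all 10 members among them) and the quasi-likelihood test, two-sided, with Benjamini-Hochberg adjustment over all genes tested and a threshold of 0.05. A group of 1 library is assumed to vary like the others. Errors after ± are SE. The test was run on simulated counts for Mll4 loss only, with the same spread set for all genes. The other comparisons, which rest on the single empty-vector library, were not simulated. Alternatives were other scalings and filters, DESeq2 1.42.0, fits of the libraries compared alone, the FOXO3 pair summed, blocks and each library left out. LSK libraries were described by exact Poisson-based intervals on the ratio of counts, and counting floors of 3 counts cover counting error only.

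The members and gene lists were chosen with earlier results of these data known. Named genes were all members and, in each list, up to 4 genes with the smallest p for Mll4 loss and up to 2 in each other comparison; some genes that the rule names are not reported here. Replicate numbers come from the file headers and the labels give no pairing, so no pairing was assumed.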

Additional observations from a re-analysis of the deposited data

Results flagged for a closer look

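In 3 members the LSK library labelled Mll4 deleted lay below the WT one, whereas in MLL-AF9 cells both deleted libraries lay above both intact ones. The log2 ratio of deleted to WT in LSK cells was -0.62 for E2f1, -2.13 for E2f6 and -3.10 for E2f8, beside log2 fold changes of 0.41, 0.35 and 0.94 in MLL-AF9 cells, of which only that of E2f8 passed the test. The difference between the cell types was not tested, because LSK cells have 1 library a genotype. In that pair of libraries 42.3% of 9033 genes with at least 100 counts in either differed at least 4-fold, and Kmt2d itself was higher in the library labelled deleted, by a log2 ratio of 2.88.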

How the results depend on the processing

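Of 520 member fold changes recomputed under other settings, 435 kept their direction and their side of the threshold, 41 lost a call, 29 gained one and 15 changed sign. The 520 include members that were not called, and a call can be lost only where one was made. E2f4 with FOXO3 lost its call under 7 of 17 settings and E2f8 for Mll4 loss under 6 of 18. E2f8 between the transformations lost it under 1 of 17. For Mll4 loss, 2237 genes and 3 members were called; scaling by library totals called 3540 genes and 6 members (median of all genes 0.24), DESeq2 called 3695 genes, the FOXO3 pair summed 312 genes and 0 members (5 members had an unadjusted p under 0.05), and edgeR on the 4 libraries compared 0 genes and 0 members (3498 genes and 4 members at an unadjusted p under 0.05). For FOXO3, with 1069 genes and 1 member called, DESeq2 called 2178 genes and 2 members, the 3 libraries compared alone 9710 genes and 7 members, the pair summed 178 genes and 0 members, and library totals 0 members. For the 2 transformations, with 3260 genes and 5 members called, the 3 libraries compared alone called 0 genes and 0 members (3299 genes and 6 members at an unadjusted p under 0.05), and the pair summed 1045 genes and 1 member.

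Leaving out 1 library gave 302 to 3106 genes and 0 to 6 members for Mll4 loss (787 genes and 1 member without intact library 1, 302 and 314 genes and 0 members without either FOXO3 library, 6 members without deleted library 1), 140 to 2213 genes and 0 to 2 members for FOXO3, and 1043 to 4920 genes and 1 to 6 members for the transformations (1 member without either FOXO3 library). Without the empty-vector library the last 2 comparisons have no value. Rbl1, not called for Mll4 loss, passed under 9 of 18 settings, among them DESeq2 (adjusted p 0.00670) and library totals (0.00712), over a range of 0.00670 to 0.124.

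The changes of sign met values not called here; Rb1 was called lower only without deleted library 1 (Mll4 loss, adjusted p 0.0253) and without deleted library 2 (transformations, 0.0260). For Mll4 loss the log2 fold change of Rb1 was 0.040 with library totals and -0.538 to 0.0537 without 1 library, the lowest without deleted library 1 and the highest without deleted library 2. That of Rbl2 was 0.239 with library totals, 0.0340 with no filter, 0.0138 with only the libraries compared, 0.0373 with the pair summed and -0.122 to 0.0589 without 1 library. For the transformations Rb1 ranged over -0.559 to 0.0543, the highest without deleted library 1. The causes were not tested.

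With the replicate number as a block, Mll4 loss called 2393 genes and 4 members, FOXO3 1080 genes and 0 members, and the transformations 2575 genes and 5 members; for FOXO3, the log2 fold changes were then 0.00776 for E2f3, -0.00108 for E2f7 and 0.00920 for Rb1. Same-numbered deleted and intact libraries had deviations correlated at 0.236, and deleted and FOXO3 libraries at 0.0177, and 2 pairs with no pairing in the labels do not show that the numbers pair the libraries. A block by library sex, chosen after seeing the data, crosses the numbers; it called 1910 genes and 3 members for Mll4 loss, 738 genes and 0 members for FOXO3, and 2448 genes and 5 members for the transformations, where E2f7 was lost and E2f3 gained. LSK values rest on 1 library a genotype.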
